A study of Mus musculus with 3 samples.

Results

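Chemokines are small secreted proteins that guide migrating cells, and endothelial cells display them to leukocytes that pass in blood or lymph. Ccl21a encodes a ligand of Ccr7 that recruits T cells and dendritic cells, Cxcl12 encodes the ligand of Cxcr4, Cxcl9 encodes an interferon-induced ligand of Cxcr3, and Ccl20 encodes the ligand of Ccr6. The atypical chemokine receptors Ackr1, Ackr2, Ackr3 and Ackr4 bind chemokines without classical G-protein signalling. Ackr1 carries chemokines across venules, Ackr2 and Ackr4 take up and degrade CC chemokines, and Ackr3 takes up Cxcl12. In lymph nodes, high endothelial venules let lymphocytes in from blood, and distinct lymphatic endothelial cells line the ceiling and the floor of the subcapsular sinus.

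These 8 genes, taken by symbol from the 32285 gene rows of the deposited tables, were described in single-cell libraries of mouse intestinal organoids, which are epithelial cultures. There was 1 library for each of 3 groups of C57BL/6 origin: WT, LApc, which carried Lgr5-CreERT2 and Apc fl/fl, and LApcL, which carried Lef1 fl/fl in addition to these. The mice were 7 to 8 weeks old and received 2 doses of 2 mg tamoxifen, which activates a Cre made in cells that express Lgr5, and tissue was taken after 21 days for WT and LApcL and after 29 days for LApc. Organoids were used at passage 3 on day 6. The counts do not show how complete either deletion was. With 1 library per group there is no replicate check and no p-value, and all intervals below are exact 95% intervals that cover counting error only.

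The libraries held 11411 (WT), 10706 (LApc) and 12068 (LApcL) barcodes, with 87185429 to 118867221 unique molecular identifiers (UMIs) each. The same 3195 barcodes were present in all 3 libraries, and 3145 of them had at most 20% mitochondrial UMIs in WT. They are called shared barcodes here and are compared with the 2992, 3584 and 4644 barcodes that passed the same limit and were found in 1 library only. Total UMIs of a shared barcode were nearly the same up to a factor in each library (Pearson r of log values 0.994 for LApc with WT and 0.993 for LApcL with WT, over 3145 barcodes), so the 3 libraries are not 3 separate samples of these barcodes.

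Shared barcodes carried endothelial transcripts. All 5 endothelial markers stood above 10 CPM (UMIs scaled to a total of 1e6) in them, and in WT, LApc and LApcL they summed to 4016, 4008 and 3989 CPM. The same sum over barcodes of 1 library was 13.1, 28.1 and 12.0 CPM. For 5 epithelial markers the shared barcodes gave sums of 8.87, 54.9 and 42.1 CPM, while barcodes of 1 library gave 3622, 6524 and 7156 CPM. All 5 high endothelial venule markers and all 6 lymphatic endothelial markers were above 10 CPM in shared barcodes, and the 5 leukocyte markers summed to 294 CPM in WT. Of that sum 286 CPM was Cd74, the invariant chain of MHC class II, and the other 4, among them Ptprc at 0.985 CPM, stood at 0.493 to 3.45 CPM. Cd74 stood at 524 CPM in the venule class described next, and its part in the results below was not tested. The labels name no lymph node or endothelial tissue, and how these barcodes came to be in organoid libraries was not tested.

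WT counts of genes outside the 8 sorted the shared barcodes into classes. A barcode was lymphatic-gene-positive with at least 1 UMI of Prox1 and Mmrn1 together (1094 barcodes), and the others were called blood-side (2051). A barcode was venule-gene-positive with at least 2 UMIs of Selp, Fut7 and Vwf together. This gave 1040 lymphatic, 437 venule and 54 doubly positive barcodes and a rest of 1614, with median depths of 2820, 3315, 4472.5 and 1638 UMIs in WT. The LApc and LApcL counts of these barcodes played no part in the sorting. As the libraries are not separate samples of these barcodes, like values or directions in them below are no replicate of WT.

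**Figure D1:**
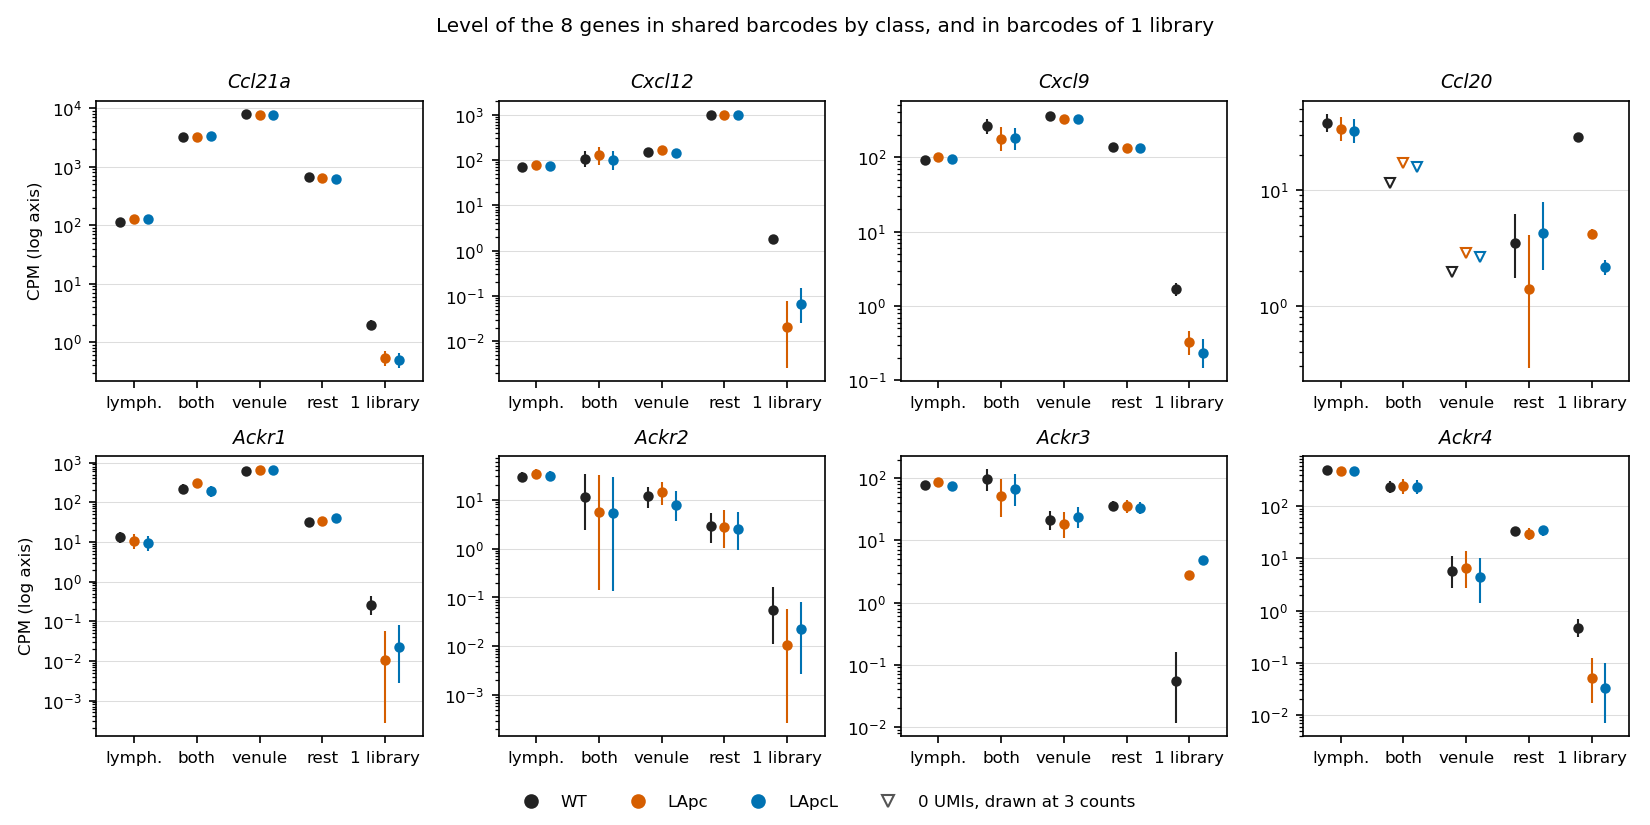
Level of each gene in CPM (log axis) in lymphatic (lymph.), doubly positive (both), venule and remaining (rest) shared barcodes and in barcodes of 1 library, with exact 95% intervals; open triangles mark 0 UMIs and are drawn at 3 counts. In each class of shared barcodes the 3 libraries gave similar values, from 7717 to 7952 CPM for Ccl21a in venule barcodes for example, while the barcodes of 1 library differed between genotypes.

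Ccl21a was highest in venule barcodes. They held 12258, 8252 and 8760 of its UMIs in WT, LApc and LApcL, which is 7952 (7812 to 8094), 7841 and 7717 CPM. The rest held 657, 642 and 631 CPM, and lymphatic barcodes held 116, 126 and 126 CPM. The order venule, rest, lymphatic was the same in every library and no intervals overlapped between these classes. Ccl21a was detected in 64.1% of venule barcodes in WT, in 11.9% of the rest and in 5.58% of lymphatic barcodes. Shares follow depth, so barcodes were also thinned to 1000 UMIs each. This left out 7 venule, 264 remaining and 67 lymphatic barcodes that were shallower in WT. In the same order 40, 669 and 170 were left out in LApc and 24, 590 and 143 in LApcL. Over the 3 libraries the thinned shares ranged from 59.8 to 61.4% of venule barcodes, from 9.18 to 10.3% of the rest and from 2.79 to 3.19% of lymphatic ones. The deposited annotation holds a pair of gene IDs with this symbol, and ENSMUSG00000094686 (chromosome 4, 42772860 to 42773993, reverse strand) took 15744 of its UMIs in WT and the other ID took 1. The near-identical copies Ccl21b and Ccl21c stood at 0 UMIs, so the split of reads among these copies is uncertain.

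A small number of barcodes carried most Ccl21a outside the venule class. Of the 2082 Ccl21a UMIs in the rest in WT, 1790 lay in 61 barcodes with at least 10 of them, a limit chosen after the values had been seen. In those 61 barcodes Ackr1 stood at 221 CPM, although their Selp, Fut7 and Vwf counts were under the limit. Glycam1, a mucin-like ligand of L-selectin made by high endothelial venules, stood at 4776 CPM there. Glycam1 was not particular to venule barcodes. It stood at 20340 CPM in them in WT and at 12369 CPM in lymphatic-gene-positive barcodes with at least 2 Madcam1 UMIs. In the 61 barcodes Ccl19, the other Ccr7 ligand, held 5, 5 and 1 UMIs in WT, LApc and LApcL, or 27.6 CPM in WT. Dcn, a gene of fibroblasts, stood at 155 CPM in the 61 barcodes, against 92.0 CPM in lymphatic barcodes. The 5 stromal markers summed to 182, 197 and 189 CPM in WT, LApc and LApcL in the 61 barcodes, mostly from Dcn, with at most 3 UMIs of Pdgfrb, Pdgfra, Col1a1 or Des in any library. The part of Ccl19 and of the stromal markers in this result was not tested. In lymphatic barcodes, 98 of 364 Ccl21a UMIs came from a single barcode in WT. Ccl21a UMIs per Glycam1 UMI were 0.391 in venule barcodes, 0.0779 in lymphatic barcodes and 0.837 in the rest in WT. Within the rest the ratio was 2.07 in the 61 barcodes and 0.180 in the others. Ccl21a counts chose these 61 barcodes, so the direction of this gap was fixed by the choice. Among lymphatic-gene-positive barcodes the ratio was 0.0240 with at least 2 Madcam1 UMIs, 0.495 in others with Marco and 0.282 with neither. Most Ccl21a UMIs behind the Madcam1 value came from a single barcode, and likewise behind the Marco value.

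Cxcl12 (chromosome 6, 117168535 to 117181367, forward strand) was highest outside the venule and lymphatic classes. The rest held 971 (937 to 1006), 972 and 1006 CPM in WT, LApc and LApcL. Venule barcodes held 152, 167 and 141 CPM, and lymphatic barcodes 69.2, 75.7 and 73.0 CPM. The rest was thus above both other classes in each library, with no overlap of intervals. After thinning, Cxcl12 was detected in 47.3% of the rest, 10.9% of venule and 3.60% of lymphatic barcodes in WT. Its UMIs were spread over many barcodes, and the highest single barcode had 32 of 3557 in WT.

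Cxcl9 (chromosome 5, 92321347 to 92328079, reverse strand) differed less between classes. Venule barcodes held 353 (324 to 384), 324 and 329 CPM in WT, LApc and LApcL. The rest held 137, 132 and 133 CPM and lymphatic barcodes 91.7, 100.4 and 93.7 CPM. Venule barcodes were the highest of the 3 classes in each library, while the intervals of the rest and of lymphatic barcodes did not overlap in any library.

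Ccl20 (chromosome 1, 83116766 to 83119167, forward strand) was sparse in shared barcodes and lay mostly in lymphatic ones. They held 121, 73 and 76 UMIs, or 38.4 (31.9 to 45.9), 34.1 and 32.8 CPM, from 28, 22 and 22 barcodes. Venule and doubly positive barcodes held 0 UMIs in every library. For 437 venule barcodes 3 counts would be 1.95 CPM in WT. The rest held 11, 3 and 10 UMIs.

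Ackr1 (chromosome 1, 173331886 to 173333750, reverse strand) followed the venule class among the receptors. Venule barcodes held 978, 682 and 730 UMIs, which is 634 (595 to 675), 648 and 643 CPM. The rest held 31.6, 33.0 and 40.6 CPM and lymphatic barcodes 13.0, 10.7 and 9.50 CPM. Doubly positive barcodes stood between, at 223, 302 and 189 CPM. Exons of Ackr1 overlap those of Cadm3 on the same strand, so reads shared by both genes cannot be assigned with certainty.

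Ackr4 (chromosome 9, 104084157 to 104126933, reverse strand) showed the opposite order. Lymphatic barcodes held 1552, 999 and 1078 UMIs, or 493 (468 to 518), 467 and 465 CPM. The rest held 33.5, 29.3 and 34.2 CPM and venule barcodes 5.84, 6.65 and 4.40 CPM, from 9, 7 and 5 UMIs. The thinned share in WT was 24.97% of lymphatic barcodes, 1.56% of the rest and 0.47% of venule barcodes. Exons of Ackr4 overlap those of Acad11 on the opposite strand.

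Ackr2 (chromosome 9, 121898355 to 121911074, forward strand) and Ackr3 (chromosome 1, 90203980 to 90216751, forward strand) had fewer UMIs. Ackr2 stood at 29.8 (24.1 to 36.5), 34.1 and 31.1 CPM in lymphatic barcodes, at 11.7, 14.3 and 7.93 CPM in venule barcodes and at 2.84, 2.79 and 2.57 CPM in the rest. Its 94 lymphatic UMIs in WT came from 79 barcodes, with at most 3 in any. Ackr3 stood at 78.7 (69.2 to 89.1), 88.3 and 76.4 CPM in lymphatic barcodes, at 36.0, 35.3 and 33.8 CPM in the rest and at 21.4, 18.1 and 23.8 CPM in venule barcodes. For Ackr3 the rest and venule intervals overlapped in every library, while lymphatic barcodes were above both.

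The first comparison set all 1094 lymphatic-gene-positive against the 2051 blood-side barcodes. A gene was counted as higher or lower at a CPM ratio of at least 2 in that direction, among genes with at least 20 UMIs over both sets. The 8 genes were chosen with earlier results of these data known. Their counts beside the shares over all genes, here and in the later comparisons, are thus a description only. In WT 4 of the 8 genes were higher in lymphatic-gene-positive barcodes, against 13.5% of 11520 genes, and 3 were lower, against 7.59%. The higher ones were Ackr4 at 19.4-fold (16.0 to 23.6), Ccl20 at 15.2-fold (8.19 to 31.2), Ackr2 at 4.96-fold (3.21 to 7.91) and Ackr3 at 2.56-fold (2.09 to 3.15). The lower ones were Cxcl12, 9.75-fold lower (8.56 to 11.1), Ccl21a, 8.65-fold lower (8.15 to 9.18), and Ackr1, 7.89-fold lower (6.42 to 9.79). Cxcl9 was 1.98-fold lower (1.75 to 2.24) and so fell just short of the limit. The LApc and LApcL counts gave the same direction for each gene, with ratios of 20.6 and 18.3 for Ackr4. For Ccl20 they were 33.7 (11.1 to 167) and 10.5 (5.42 to 22.8), on 3 and 10 blood-side UMIs. With at least 2 UMIs of Prox1 and Mmrn1 required, the log2 ratio of Ccl20 was 1.66 in place of 3.92 and that of Ackr4 was 3.41 in place of 4.28, while Cxcl12 (-4.50), Ccl21a (-4.20), Ackr1 (-3.70) and Cxcl9 (-1.58) lay farther below 0.

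The second comparison set the 437 venule barcodes against the rest of the blood side. Of the 7 genes with enough UMIs in WT, 4 were higher in venule barcodes, against 3.85% of 10039 genes, and 2 were lower, against 11.5%. Ackr1 was 20.1-fold (16.3 to 24.9), Ccl21a 12.1-fold (11.5 to 12.7), Ackr2 4.11-fold (1.75 to 10.4) and Cxcl9 2.58-fold (2.27 to 2.94) higher. The Ackr2 value rests on 18 and 9 UMIs, and with classes taken from LApc counts and levels from LApcL it was 0.61 on the log2 scale in place of 2.04. Ccl21a was 2.92 with at least 3 venule UMIs required and 4.30 with at least 1, in place of 3.60. Cxcl12 was 6.40-fold lower (5.60 to 7.34) and Ackr4 was 5.73-fold lower (2.91 to 12.9). Ackr3 stood at 0.595 (0.391 to 0.883) of the level in the rest and did not reach 2-fold, and Ccl20, with 0 UMIs in venule barcodes, was left out.

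**Figure D2:**
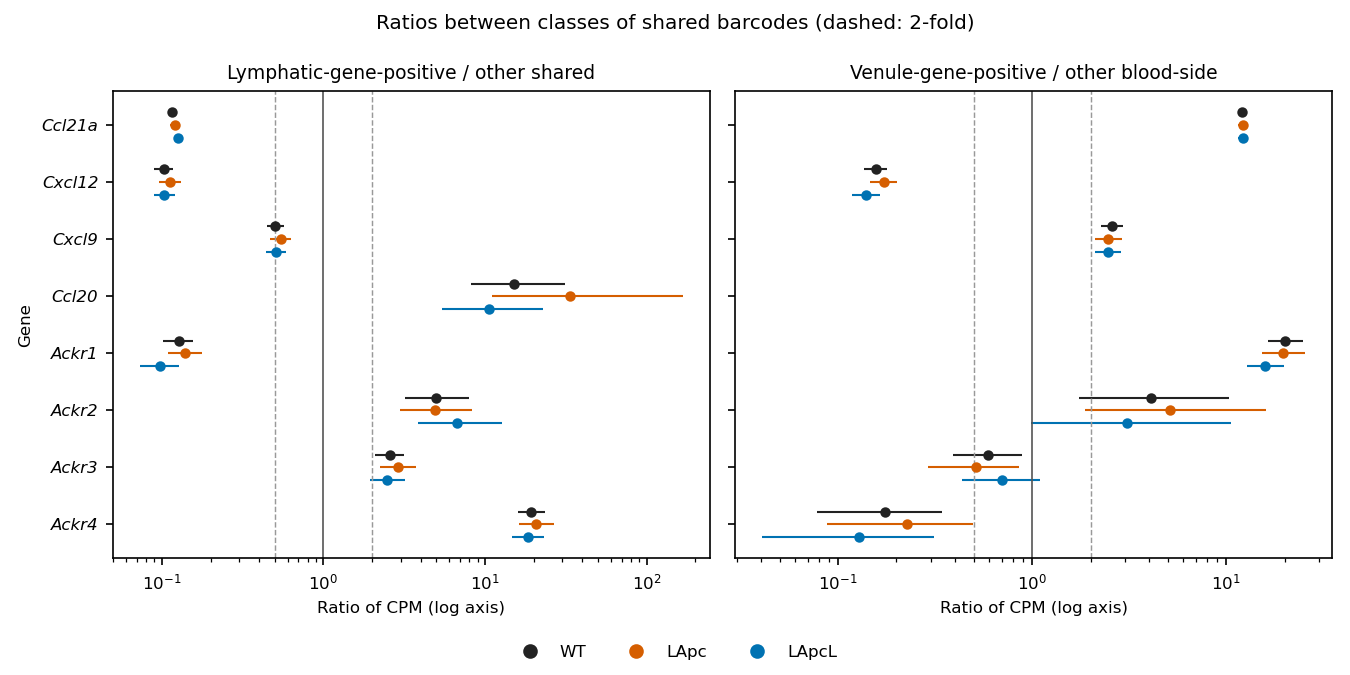
Ratio of CPM (log axis) between lymphatic-gene-positive and blood-side barcodes (left) and between venule barcodes and the rest of the blood side (right) for each gene with UMIs in both sets, with exact 95% intervals and dashed lines at 2-fold. Ackr4 and Ccl20 lie farthest to the right on the left panel and Ackr1 and Ccl21a on the right panel, and the 3 libraries gave overlapping intervals for every gene on both panels.

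Lymphatic-gene-positive barcodes were divided further by WT counts of Madcam1, which marks lymphatic endothelium of the sinus floor, and Marco, a scavenger receptor of lymphatic sinuses. Ackr4 itself is known from the sinus ceiling. There were 58 barcodes with at least 2 Madcam1 UMIs, 250 of the others with Marco, and 786 with neither, which include doubly positive ones. The levels of Ccl20 and Ackr4 peaked in different groups. Ccl20 stood at 234 (178 to 301), 222 and 222 CPM in the Madcam1 group, where it was detected in 16, 12 and 12 of the 58 barcodes, and Ackr4 at 7.80, 5.70 and 5.29 CPM, from 2, 1 and 1 UMIs. In barcodes with neither gene Ackr4 stood at 669 (636 to 704), 633 and 639.5 CPM, and Ccl20 at 27.0, 22.2 and 20.5 CPM. The Ccl20 UMIs themselves were divided between these groups, with 61, 34 and 34 in barcodes with neither gene and 60, 39 and 42 in the Madcam1 group. In the Marco group Ackr4 stood at 111, 114 and 90.0 CPM and Ccl20 at 0 UMIs in each library. There 3 counts would be 3.35 CPM in WT.

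The other members also differed among these groups. Ackr3 stood at 115, 123 and 111 CPM in barcodes with neither gene, at 14.5, 14.8 and 6.10 CPM in the Marco group, and held 0, 1 and 2 UMIs in the Madcam1 group. Cxcl9 was highest in the Madcam1 group, at 265 (206 to 336), 297 and 259 CPM, against 112, 137 and 120.5 CPM in the Marco group and 83.6, 72.4 and 74.0 CPM in the others. A single barcode held 46 of the 100 Cxcl9 UMIs of the Marco group in WT. Cxcl12 held 0 UMIs in the Madcam1 group in all 3 libraries, and 41.3 and 92.5 CPM in the Marco group and the remaining barcodes in WT. Ackr2 intervals overlapped among the 3 groups, from 19.5 to 31.0 CPM in WT. Ccl21a stood at 296 CPM in the Madcam1 group in WT, but 71 of its 76 UMIs came from a single barcode, and 76 of 97 did in the Marco group.

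Remaining blood-side barcodes were divided by the arterial genes Gja4, Gja5 and Sema3g. Cxcl12 stood at 1269.8 (1185 to 1359), 1279 and 1324 CPM in 303 barcodes with an arterial gene and at 893 (856 to 931), 891 and 923 CPM in 1311 without. Ccl21a went the other way, at 136, 109 and 119 CPM against 795, 782 and 766 CPM, as did Ackr1, at 4.54, 4.46 and 6.17 CPM against 38.7, 40.5 and 49.7 CPM. Ackr3 intervals overlapped, at 40.9 and 34.7 CPM in WT.

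**Figure D3:**
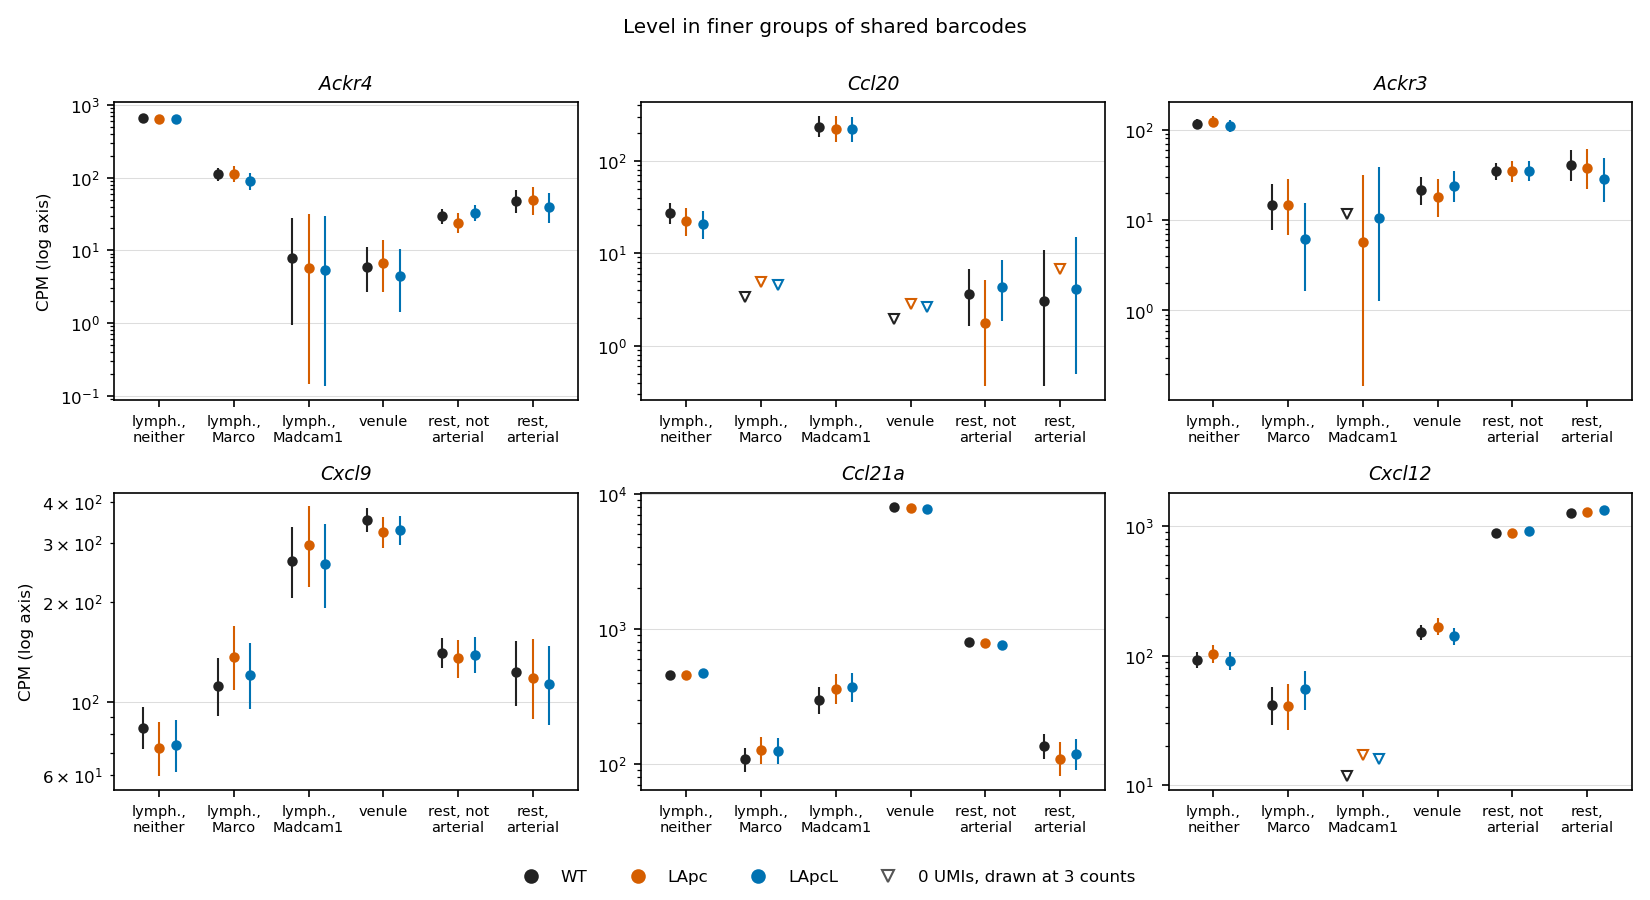
Level of 6 of the genes in CPM (log axis) in lymphatic-gene-positive barcodes with neither Madcam1 nor Marco, with Marco or with Madcam1, in venule barcodes, and in remaining barcodes without or with an arterial gene, with exact 95% intervals; open triangles mark 0 UMIs and are drawn at 3 counts. Ackr4 peaked at 669 CPM in the group with neither gene, Ccl20 at 234 CPM in the Madcam1 group and Cxcl12 at 1269.8 CPM in the arterial group in WT.

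Because each shared barcode was counted in 3 libraries, a gene detected in WT could be looked up in the same barcode elsewhere. The libraries are not separate samples of these barcodes, so the shares are a description only. Among 368 lymphatic-gene-positive barcodes with Ackr4 in WT, 0 had Ccl20 in LApc and 0 in LApcL, against 22 of 726 (3.03%, 1.91 to 4.55) without Ackr4 in either library. Ackr3 was seen in LApc in 26.4% (21.9 to 31.2) of barcodes with Ackr4 in WT and in 6.20% (4.56 to 8.21) of those without, at median WT depths of 3034 and 2734.5 UMIs. On the blood side, Ccl21a was seen in LApc in 61.6% (56.3 to 66.8) of 344 barcodes with Ackr1 in WT and in 12.7% (11.2 to 14.4) of 1707 without. The barcodes with Ackr1 were also deeper, with medians of 3538 and 1683 UMIs. Cxcl12 went the other way, with 19.8% (15.7 to 24.4) of barcodes with Ackr1 and 48.0% (45.6 to 50.4) of those without. Ackr3 and its ligand Cxcl12 showed overlapping shares, with Cxcl12 in 35.7% (26.9 to 45.1) of 115 blood-side barcodes with Ackr3 and in 43.8% (41.5 to 46.0) of those without.

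Levels over all shared barcodes differed little between libraries. The CPM ratio to WT lay between 0.847 for Ccl20 in LApc and 1.13 for Ackr2 in LApc, and the interval of each of the 16 ratios included 1. The same barcodes were positive again, in libraries that are not separate samples of them. Of 549 barcodes with Ccl21a in WT, 75.0% had it in LApc and 77.4% in LApcL, against 3.31% and 2.62% of barcodes without it in WT. The 32 barcodes with Ccl20 in WT had it again in 71.9% of cases in each of the other libraries, against 0.0642% and 0.0964%. Ackr2, the gene with the fewest UMIs per positive barcode, returned in 37.4% and 35.5%, against 1.35%.

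The genes whose counts followed each member most closely over the 3145 shared barcodes were taken by Pearson correlation of log-scaled UMIs in WT, among 5399 genes, as a description only. Barcodes of 1 class share many genes and depth enters every value. Glycam1, Fut7 and Ubd led for Ccl21a (0.59, 0.58 and 0.56), and Selp, Vwf and Lrg1 for Ackr1 (0.56, 0.50 and 0.46), where Fut7, Selp and Vwf are genes of the venule rule itself. Ly6c1, Flt1 and Ly6a led for Cxcl12 (0.58, 0.49 and 0.47), and Fxyd6, Nudt4 and Bgn for Ackr4 (0.61, 0.55 and 0.54). Cxcl10, the related interferon-induced ligand, Ubd and Glycam1 led for Cxcl9 (0.42, 0.31 and 0.25), and Ackr4, Fxyd6 and Bgn for Ackr3 (0.28, 0.25 and 0.23). Values in LApc and LApcL were lower for each of these, and that of Bgn with Ackr4 was 0.43 in LApc. Ccl20 and Ackr2 had under 200 UMIs and were not scored.

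Among 31 other chemokines found, 9 were at 10 CPM or more in the shared barcodes of WT, 9 in LApc and 9 in LApcL. Cxcl1, a neutrophil attractant, stood at 677 CPM in the rest, 575 CPM in venule and 189 CPM in lymphatic barcodes in WT. Ccl2, a monocyte attractant, was highest in the Marco group at 334 CPM and stood at 5.19 CPM in venule barcodes. Cxcl10 was highest in the Madcam1 group at 784 CPM, and Pf4 stood at 101 CPM there. Cx3cl1 was highest in the arterial group at 72.6 CPM. Cxcl2, another neutrophil attractant, stood at 202 CPM in the rest and 60.0 CPM in lymphatic barcodes, and Cxcl16 at 7.89 and 63.5 CPM. Ccl7 stood at 27.3 CPM in lymphatic barcodes and held 0 UMIs in venule ones, and Ccl25 stood at 11.7 to 15.8 CPM in lymphatic, venule and remaining barcodes. Ccl8 reached 13.4 CPM in the Marco group in WT, on 12 UMIs. Ccl19 reached 19.5 CPM in the Madcam1 group in WT, on 5, 2 and 1 UMIs in WT, LApc and LApcL. Ccl27a reached 11.5 CPM in doubly positive barcodes in WT, on 3, 1 and 1 UMIs in the same order. Few UMIs came from the signalling receptors, with 1 of 19 at 10 CPM or more in each library, the atypical-like receptor Ccrl2 at 20.8 CPM in WT. Among receptors of member ligands, Ccr7 stood at 0.493 CPM, Cxcr3 at 0.246 CPM and Ccr6 at 0.123 CPM over shared barcodes of WT. Cxcr4 stood at 5.91 CPM over the same barcodes and at 14.2 CPM in the rest. It held 0 UMIs in venule barcodes and stood at 0.952 CPM in lymphatic ones.

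The third comparison set shared against single-library barcodes within each library. In WT 7 of the 8 genes were at least 2-fold higher in shared barcodes, against 31.7% of 15327 genes, and 0 were lower, against 22.9%. The 8 genes were chosen as genes of lymph node endothelium with earlier results of these data known, so this excess is no independent result. Ccl21a stood at 1.97, 0.532 and 0.492 CPM in single-library barcodes of WT, LApc and LApcL, on 108, 51 and 44 UMIs, and Cxcl12 at 1.85, 0.0209 and 0.0671 CPM, on 101, 2 and 6 UMIs. Cxcl9 stood at 1.68, 0.323 and 0.235 CPM, on 92, 31 and 21 UMIs. Ackr1, Ackr2 and Ackr4 each held 26 or fewer UMIs there in every library. In WT, 94 of the 108 Ccl21a UMIs and 97 of the 101 Cxcl12 UMIs came from shallow barcodes under 10000 UMIs. The log2 ratios of the 7 genes ranged from 6.61 for Cxcl9 to 9.92 for Ccl21a, and with every barcode weighted equally from 3.47 for Cxcl12 to 4.92 for Ackr3.

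Ccl20 was the 1 gene with a higher level in single-library than in shared barcodes of WT. Its UMIs in single-library barcodes numbered 1587, 398 and 192 in WT, LApc and LApcL, which is 29.0 (27.6 to 30.5), 4.15 (3.76 to 4.58) and 2.15 (1.86 to 2.47) CPM. Each value was below the one before it, with no overlap of intervals. Shared barcodes stood at 16.3, 13.8 and 14.4 CPM, so the log2 ratio of shared to single-library barcodes was -0.83 in WT, 1.73 in LApc and 2.74 in LApcL. Against single-library barcodes under 10000 UMIs it was 0.34 in WT. Of the 1208 WT barcodes with at least 10000 UMIs, 27.6% had Ccl20, against 5.60% of 2161 in LApc and 3.73% of 1931 in LApcL, at median depths of 38073.5, 34377 and 32584 UMIs. The highest single barcode held 61 of the 1587 WT UMIs.

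Ackr3 had the reverse order. Its UMIs in single-library barcodes numbered 3, 263 and 440 in WT, LApc and LApcL, which is 0.0548 (0.0113 to 0.160), 2.74 (2.42 to 3.10) and 4.92 (4.47 to 5.41) CPM. In barcodes with at least 10000 UMIs it held 0 UMIs in WT, where 3 counts would be 0.0614 CPM. It was detected in 156 (7.22%) LApc and 290 (15.0%) LApcL barcodes of that depth. No barcode held more than 7 of its UMIs, so the signal was spread over many of them. Shared barcodes still held more, at 51.7, 53.1 and 49.5 CPM.

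The fourth comparison, LApc against WT single-library barcodes, addressed the Apc genotype. Of 6 genes with at least 20 UMIs, 1 was higher, against 28.0% of 16483 genes, and 5 were lower, against 15.8%. Cxcl12 (101 UMIs in WT and 2 in LApc) and Ackr4 (26 and 5) passed this limit only through WT, and Ackr3 only through LApc. The numbers of higher and lower genes are therefore a description only. Ackr3 was 50.1-fold (16.9 to 244) higher on 263 and 3 UMIs, a log2 ratio of 5.65, which was 0.14 with every barcode weighted equally. The log2 ratios of the lower genes were -6.47 for Cxcl12, -3.19 for Ackr4, -2.80 for Ccl20, -2.38 for Cxcl9 and -1.89 for Ccl21a. In barcodes with at least 10000 UMIs Ccl21a turned to 0.58, Cxcl12 was -1.89 and Ackr4 was -0.89, each on few UMIs. Ccl20 and Cxcl9 are thus the lower genes whose UMIs lay mainly in deep barcodes, with 1512 and 389 Ccl20 UMIs there and 81 and 27 Cxcl9 UMIs. A single barcode held 28 of those 81.

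The fifth comparison, LApcL against LApc, addressed the Lef1 genotype on the Apc-targeted background. Of 4 genes tested, 0 were at least 2-fold higher, against 3.97% of 16079 genes, and 0 were lower, against 10.4%. Ackr3 was 1.79-fold (1.54 to 2.098) higher and Ccl20 stood at 0.517 (0.433 to 0.616) of the LApc level. Cxcl9 and Ccl21a had intervals that included 1. The groups also differed in days after tamoxifen, which cannot be told apart from the genotype in either comparison.

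Deep single-library barcodes were also split by Lgr5, the stem cell gene, by the proliferation gene Mki67 and by Fabp1, a fatty acid binding protein of enterocytes, splits chosen after the data had been seen. Ccl20 was lower in LApc than in WT on both sides of the Lgr5 and Mki67 splits, at 3.62 against 28.9 CPM with Lgr5 and 5.04 against 31.5 CPM without. Ackr3 held 0 UMIs in each part of WT. It stood at 3.14 CPM with Lgr5 and 2.52 CPM without in LApc, and at 5.56 and 3.27 CPM in LApcL. Lgr5 was detected in 256 of 1208 WT, 969 of 2161 LApc and 1527 of 1931 LApcL deep barcodes. Fabp1 reached 10 UMIs in 695 of the 1208 WT barcodes and in 0 of the LApc and LApcL ones, so barcodes above that limit had no counterpart outside WT. Below it Ccl20 stood at 39.8 (37.0 to 42.7) CPM in WT, 4.28 (3.87 to 4.73) CPM in LApc and 2.32 (2.00 to 2.68) CPM in LApcL, and WT barcodes above it stood at 25.2 CPM. Cxcl9 stood at 1.20 (0.758 to 1.79), 0.297 (0.196 to 0.432) and 0.248 CPM below the limit, and Ackr3 had 0 UMIs on both sides of it in WT.

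**Figure D4:**
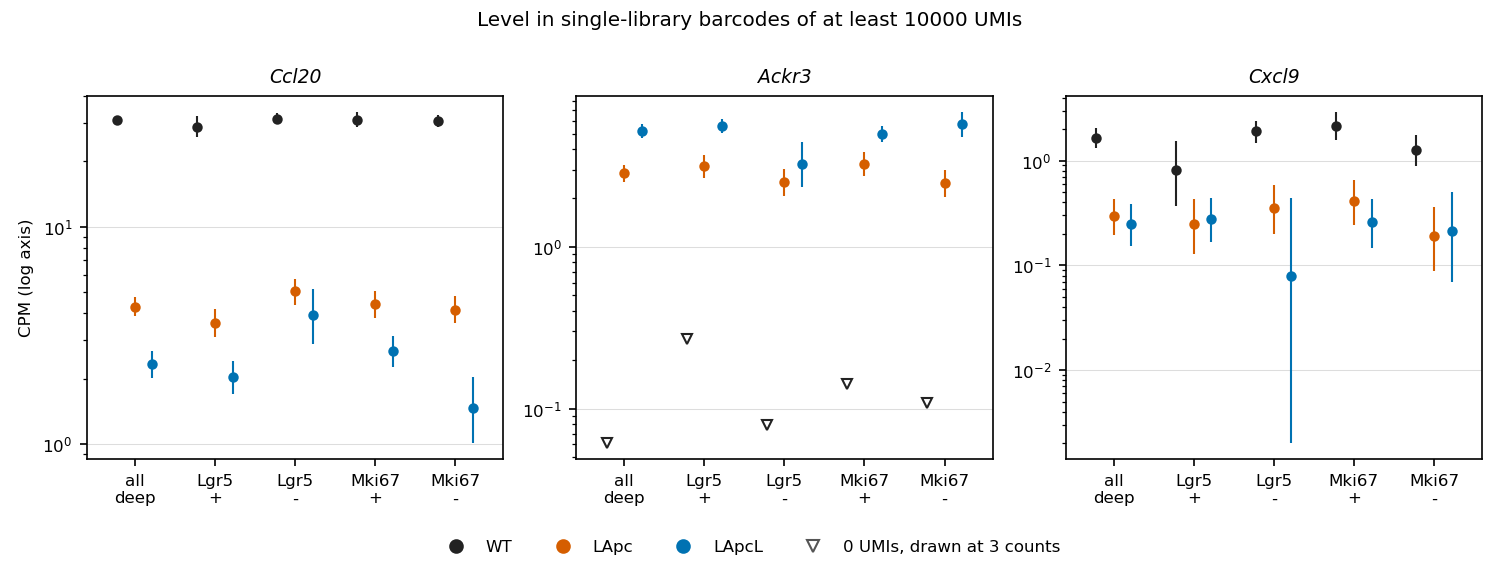
Level of Ccl20, Ackr3 and Cxcl9 in CPM (log axis) in single-library barcodes of at least 10000 UMIs, over all of them and by detection of Lgr5 or Mki67, with exact 95% intervals; open triangles mark 0 UMIs and are drawn at 3 counts. Ccl20 was highest in WT at 30.9 CPM over all deep barcodes, and Ackr3 was highest in LApcL at 5.20 CPM and at 0 UMIs in WT.

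Promoter sequence is shown for 3 of the genes that differed at least 2-fold between LApc and WT single-library barcodes and held a match, with letters searched on both strands of the 250 bases before the RefSeq start (GRCm38.p6). Capitals mark the match. For Ccl20 it is the NF-kB consensus on the opposite strand, at bases 80 to 71 before the start, found before 3.90% of 32851 starts (chr1:83116661-83116720, forward strand). For Cxcl12 it is CTTTGA on the opposite strand, a core of TCF and LEF sites, at bases 162 to 157 and before 13.8% of starts (chr6:117168348-117168403, forward strand). For Ackr3 it is TATAAA at bases 8 to 3, before 12.4% of starts (chr1:90203947-90203979, forward strand).
Ccl20: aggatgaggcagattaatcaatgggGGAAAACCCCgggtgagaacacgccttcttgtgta
Cxcl12: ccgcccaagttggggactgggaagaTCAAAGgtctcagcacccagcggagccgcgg
Ackr3: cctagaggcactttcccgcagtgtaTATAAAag
The NF-kB consensus was also found before Ackr2, and TATAAA before Cxcl9 and Ackr4. Thus 2 and 3 of the 8 genes held these letters, and 1 held CTTTGA. Cxcl9 and Ackr4 also differed at least 2-fold between LApc and WT but are not printed. The Cxcl12 difference rested on 101 UMIs in WT, mostly in barcodes under 10000 UMIs, and 2 in LApc. Whether any match bears on these differences was not tested. The letters TTCNNNGAA, bound by STAT factors and present before 7.02% of starts, were in 0 of the 8 windows. A match of letters is a description and not a measured site.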

How the data were processed

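The authors made 10x 3′ droplet libraries and deposited raw counts of UMIs per gene and barcode for barcodes already called as cells, on mm10. Per the file headers they were made with Cell Ranger 6.0.1, while the labels name 2.1.1. Values carried no normalisation. The genes and lists were chosen with earlier results of these data known. Here, UMIs were summed over barcodes and scaled to 1e6 (CPM), so deep barcodes weigh more. Barcodes over 20% mitochondrial UMIs (13 genes) were left out. For shared barcodes the WT share decided this. No doublets were removed in the main values, and an alternative dropped the highest Scrublet scores at 0.8% per 1000 barcodes (scanpy 1.11.5), which was 309, 366 and 496 barcodes. Exact 95% intervals came from the Poisson distribution for levels, the conditional binomial for ratios and the Clopper-Pearson method for shares (scipy 1.17.1). The limit given for 0 UMIs is that of 3 counts. No test between groups was possible with 1 library each. Named were the 8 genes, the 3 most similar genes of each member with at least 200 UMIs in shared barcodes of WT, and other chemokines or receptors at 10 CPM or more in a class of WT; the receptors of member ligands were added after their values were seen. Promoter sequences were from RefSeq and positions from the mm10 annotation (GENCODE vM21).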

Additional observations from a re-analysis of the deposited data

Results flagged for a closer look

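Barcodes found in exactly 2 of the libraries entered no comparison above. After the mitochondrial limit there were 80 of them in WT, 32 in LApc and 81 in LApcL, and 8 member values in them were above the level in single-library barcodes of the same library, with an interval of the ratio above 1. In WT, Cxcl12 stood at 185 CPM on 41 UMIs and Ccl21a at 76.8 CPM on 17 UMIs, while Cxcl9 and Ackr1 stood at 13.6 CPM on 3 UMIs each. In LApc, Ccl20 stood at 52.1 CPM on 28 UMIs and Cxcl12 at 16.7 CPM on 9 UMIs. In LApcL, Cxcl12 stood at 60.5 CPM on 32 UMIs and Ccl21a at 28.3 CPM on 15 UMIs. All of these were below the level in shared barcodes, except Ccl20 in LApc.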

How the results depend on the processing

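Alternatives changed the mitochondrial limit, the gene-number filter, doublet removal, the weighting of barcodes, the library read, the class limits and the depth of single-library barcodes. Of 266 member values, 189 stayed within the main counting interval, 76 moved beyond it and 1 of 2-fold or more turned the other way, Ccl21a in LApc against WT, from -1.89 to 0.584 on the log2 scale in barcodes with at least 10000 UMIs. In all 7 values had another sign. For Ccl20 in shared against single-library barcodes, -0.83 in WT became 1.73 in LApc, 2.74 in LApcL and 0.34 against barcodes under 10000 UMIs, and the other 3 were small values of Ccl21a and Cxcl9 in LApcL against LApc, which stayed within their intervals. Of 215 values at 2-fold or more, 211 were still so in the same direction. In LApc against WT, the number of genes at least 2-fold higher was 0 with the mean of barcode shares, where Ackr3 gave 0.14, and the number lower was 3 in barcodes with at least 10000 UMIs. In LApcL against LApc, the number lower was 1 with the highest Scrublet scores removed and 2 with the mean of barcode shares. The Ccl20 ratio of the first comparison was 1.66 with at least 2 UMIs of Prox1 and Mmrn1, in place of 3.92. The causes were not tested. No paired analysis was possible because each group had 1 library.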

Other observations

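Among the other chemokines, 10 stood at 5 CPM or more in single-library barcodes of at least 1 library, a limit chosen after the values had been seen. Cxcl14 was almost wholly an LApc signal, with 4717 UMIs there, or 49.2 CPM with a counting interval of 47.8 to 50.6. LApcL had 4 Cxcl14 UMIs, or 0.0448 CPM (0.0122 to 0.115). No Cxcl14 UMI was found in WT, where a count of 0 allows up to 0.0548 CPM. In LApc these UMIs came from 318 of 3584 barcodes (8.87%), and the highest barcode held 230 of them. Cxcl5 was also higher in LApc, at 7.02 CPM, than in WT at 1.63 CPM and LApcL at 0.257 CPM, and 1 barcode held 97 of its 673 UMIs in LApc. Each genotype had 1 library, so these differences have no replicate check.

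Other chemokines were higher or lower in both Apc-targeted libraries. Ccl25, a small intestinal ligand of Ccr9, stood at 437 CPM in WT, 15.0 CPM in LApc and 12.4 CPM in LApcL. Ccl28, a mucosal ligand of Ccr10, stood at 7.76, 0.188 and 0.246 CPM. The neutrophil attractants Cxcl1 and Cxcl2 went the other way, at 4.46, 24.3 and 20.4 CPM for Cxcl1 and at 1.15, 15.8 and 12.4 CPM for Cxcl2. Cxcl16 differed less, at 46.5, 39.1 and 33.6 CPM.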
